A study of Homo sapiens with 8 samples.

Results

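The G1/S and DNA replication genes are 39 human genes whose products license replication origins, start and drive replication forks, supply nucleotides or control entry into S phase. Members were chosen by gene name, and a probe set was used where the platform annotation gave it exactly 1 member symbol. This gave 84 of the 54675 probe sets on the array and 39 of 19775 gene symbols. The probe set with the highest 8-array mean stood for its gene, and 37 members passed the filter on dim signal. The other 2, cyclin E2 (CCNE2) and claspin (CLSPN), are given as values without a test.

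Expression was measured on 8 Affymetrix arrays in HepG2, a human hepatocellular carcinoma line. The quercetin-treated group was held in serum-free medium with 3 µM quercetin, a plant flavonol, and sampled at 2, 4, 12 and 24 h, with 1 array at each time. The control group was held in the same medium without quercetin and sampled at the same 4 times, again with 1 array each. All cells of both groups had been serum starved before that medium was given, for a length that the labels state in different ways, so a time here counts only the hours after the starvation. Values are log2 expression after RMA (robust multi-array average), and a difference of 1 is a 2-fold change. There was no repeat array of any treatment at any time, and all cells are of 1 line.

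Replication begins with licensing in G1, when CDC6 and CDT1 help to load the MCM2 to MCM7 ring on origins as an inactive helicase. At the start of S phase CDC45 and the GINS complex join the ring and make it active, and primase, the replicative polymerases, the PCNA clamp and the RFC clamp loader then copy the DNA. Many of these genes are transcribed in late G1 under E2F factors, which are held in check by the retinoblastoma family. Withdrawal of serum is commonly used to slow entry into S phase.

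Of 10 markers of HepG2 cells, such as albumin and alpha-fetoprotein, 9 were tested and had array medians between 14.5 and 14.9. Of the markers of other cell types, 3 of 5 for leukocytes, 4 of 6 for fibroblasts and 2 of 5 for endothelium passed the filter, each list with array medians of at most 9.34. Array medians over all probe sets lay between 7.36 and 7.48. The 18 probe sets for spike-ins, transcripts added at hybridisation, had a low mean signal on both 12 h arrays (11.35 with quercetin and 11.19 in control) and on the 2 h control array (11.24). It lay between 11.83 and 12.11 on the other 5 arrays, so the 2 h pair alone differed in this signal. The 18S ribosomal signal at 2, 4, 12 and 24 h was 12.01, 11.62, 7.29 and 9.16 on quercetin arrays, against 8.57, 11.52, 7.35 and 9.82 on control arrays.

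The median replication gene was lowest at 24 h in the serum-free medium given after the starvation, in quercetin-treated and control cells alike. On the 24 h arrays the median member stood 0.20 below its own 8-array mean with quercetin and 0.18 below it in control. At 12 h it stood 0.20 above with quercetin and 0.17 above in control, and at 4 h it was 0.10 and 0.08 below. At 2 h the median deviation was -0.0042 with quercetin and 0.24 in control. CDC6, GINS4, RBL1 and UHRF1 were among the genes with the largest falls at 24 h, while cyclin E1, CDT1, SLBP and the mismatch repair gene MSH6 passed no test.

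**Figure D1:**
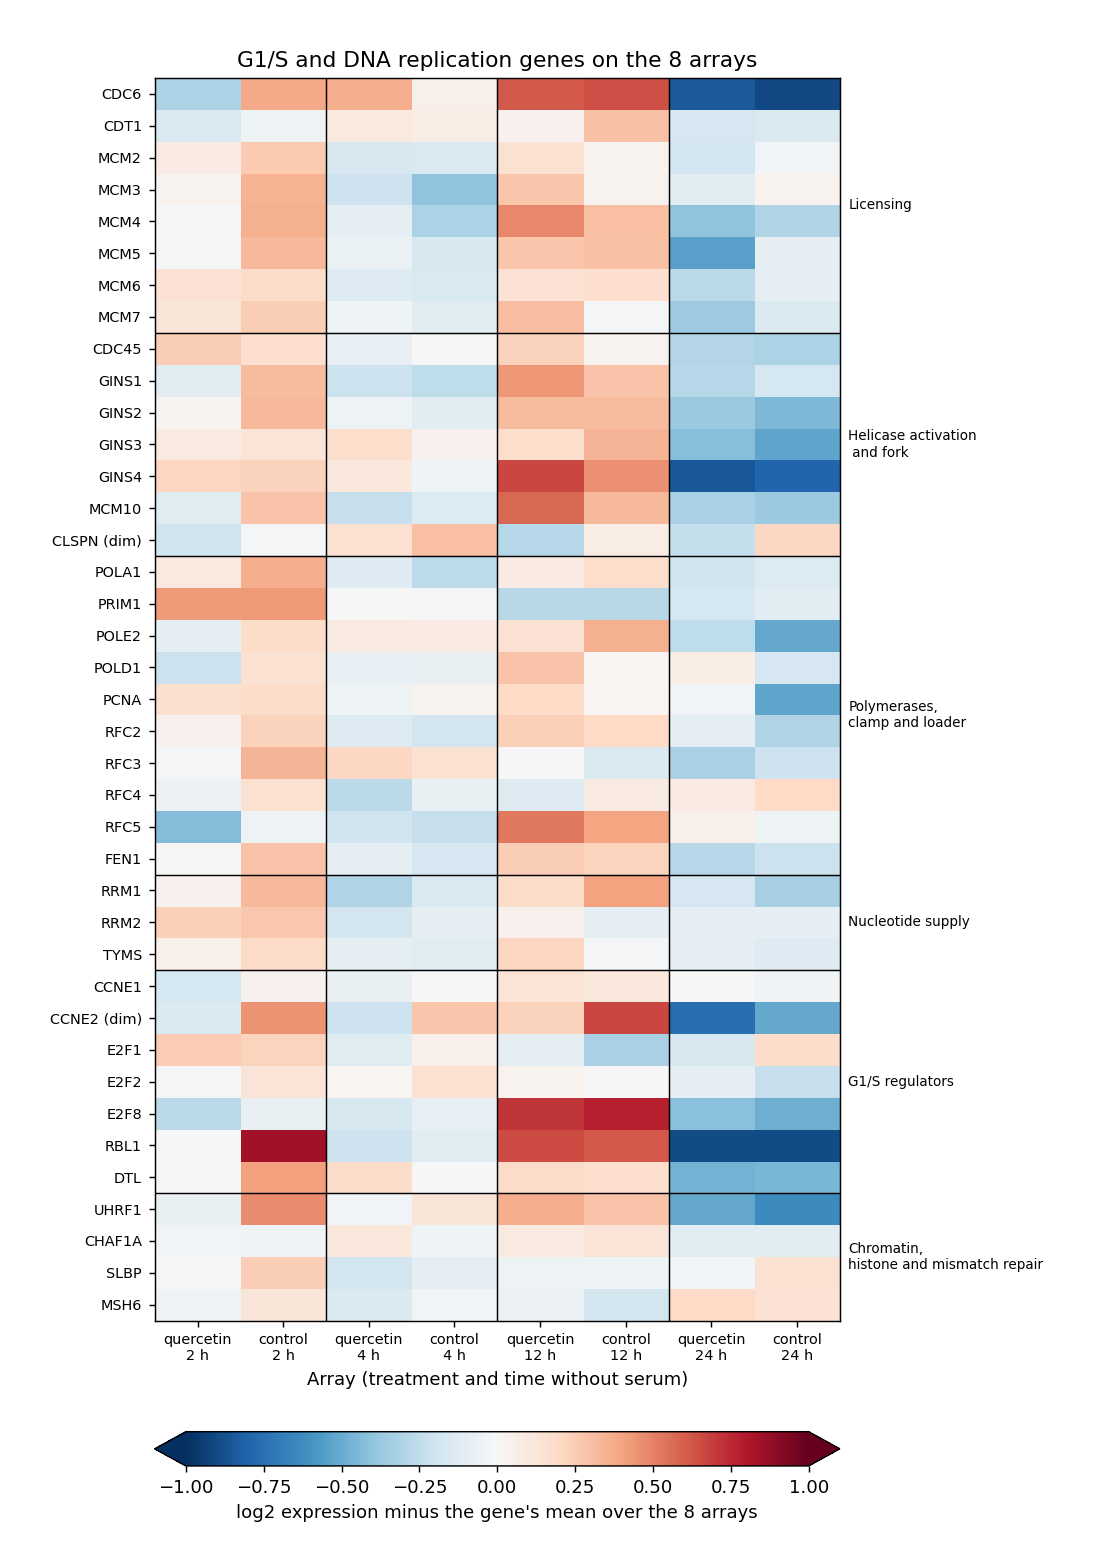
Heat map of the 39 members (rows, grouped by role) on the 8 arrays (columns, quercetin left of control at each time); colour gives log2 expression minus the gene's mean over the 8 arrays, cut at 1 in either direction. The 24 h columns are the darkest blue for CDC6, GINS4 and RBL1 in both treatments, and the 12 h columns are red for E2F8, GINS4 and RBL1.

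The HepG2 marker median and the GAPDH sign of RNA quality set the 24 h arrays apart. The ACTB sign was high at 24 h, where that of GAPDH was low, and was highest on the 12 h control array. The part of these signs and markers in the results below was not tested. The excess of 3' over 5' signal was 1.39 with quercetin and 1.36 in control at 24 h for ACTB, where it was 0.88 to 1.17 at 2 and 4 h and 0.88 and 1.40 at 12 h. For GAPDH it was 0.42 and 0.41 at 24 h, the lowest of the 8 arrays. The HepG2 marker median was 14.76 and 14.91 at 24 h and at most 14.69 earlier. Of the 9 markers 0, 4 and 3 were called higher against 2, 4 and 12 h by limma. Over all genes tested 17.3%, 32.8% and 19% were called higher in these comparisons.

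At 24 h against 2 h, 13 of 37 members fell and 0 rose by limma (Benjamini-Hochberg adjusted p under 0.05 over 13298 genes). Over all genes tested 3.98% were called lower and 17.3% higher in this comparison. The members' median difference was -0.39 and that of all genes 0.09, and 33 of the 37 were below 0. Against 12 h, a comparison chosen after the values were seen, 16 members fell and 0 rose, where 4.78% of all genes were called lower and 19% higher. The median was -0.40 for the members and 0.16 for all genes. Against 4 h, also chosen afterwards, 8 members fell and 0 rose, with 9.45% of all genes called lower and 32.8% higher, and medians of -0.14 and 0.19. RBL1 lay below the dim-signal filter on both 24 h arrays and passed it through the other arrays. Without it, a step added after the values were seen, the counts were 12, 15 and 7 of 36 against 2, 12 and 4 h. Genes outside the members were not dropped in this way, so no share over all genes stands beside these counts. The 3 comparisons share the 24 h arrays and are not independent of each other. Fits of each time rest on 2 arrays, 1 per treatment, and the error behind each p-value is how far the difference between treatments varied over times, not the spread between cultures treated alike.

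Counts depended on single arrays and on the spike-in signal. For 24 h against 2 h, 2 members were called without the 24 h control array, 3 without the 2 h control array, 6 without the 24 h quercetin array and 8 without the 2 h quercetin array. For 24 h against 12 h, 7 were called without the 24 h control array. For 24 h against 4 h, 2 were called without the 24 h control array, 3 without the 4 h quercetin array and 4 without the 4 h control array. The 12 h arrays were both low and the 24 h arrays both high in spike-in signal. With the spike-in class as a block 1 member, GINS4, was still called between them. In that fit the class effect is estimated from the 2 h pair alone. The 4 h and 24 h arrays share the high class, the block left the 8 calls between them in place, and the 5 arrays of that class alone gave 12 calls, 9 lower and 3 higher.

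Of the licensing genes, all 8 had negative differences at 24 h against 2 h and against 12 h in the probe set used. Over all genes tested 39.8% and 33.7% did. In each comparison 3 of the 8 were called, where 3.98% and 4.78% of all genes were called lower. CDC6, the ATPase that loads the MCM ring, had log2 values of 9.22, 9.90, 10.14 and 8.69 in quercetin-treated cells at 2, 4, 12 and 24 h, against 9.91, 9.58, 10.18 and 8.63 in control cells. Both 24 h arrays lay below the other 6. It was lower at 24 h, with a difference of -1.50 ± 0.21 (SE) against 12 h (2.83-fold, adjusted p = 4.82e-05 by limma), of -1.08 against 4 h (adjusted p = 0.000341 by limma) and of -0.91 against 2 h (adjusted p = 0.00367 by limma). The call held in 23 of 23 alternatives against 4 h, in 21 of 22 against 12 h (adjusted p up to 0.202 by limma) and in 18 of 22 against 2 h (up to 0.117). A further CDC6 probe set gave -0.88 against 12 h and -0.32 against 2 h. Its 24 h values (7.97 with quercetin and 8.10 in control) were not the lowest, as the 2 h quercetin array had 7.86.

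MCM4, a subunit of the ring, had 10.57, 10.49, 11.07 and 10.19 with quercetin and 10.95, 10.27, 10.89 and 10.30 in control. It was lower at 24 h, with a difference of -0.74 ± 0.17 against 12 h (adjusted p = 0.00399 by limma) and of -0.52 against 2 h (adjusted p = 0.0347 by limma), and differed by -0.14 from 4 h. Its 4 further probe sets above the filter gave -0.43, -0.34, -0.09 and 0.08 against 12 h, so 1 of them ran the other way. MCM5 had 10.38, 10.34, 10.68 and 9.86 in quercetin arrays, against 10.73, 10.24, 10.70 and 10.31 in control arrays. It was lower, with a difference of -0.60 ± 0.17 at 24 h against 12 h (adjusted p = 0.0147 by limma), while a further MCM5 probe set gave -0.06.

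MCM7 had 11.35, 11.18, 11.53 and 10.86 with quercetin and 11.47, 11.12, 11.20 and 11.08 in control, lower at 24 h than at 2 h with a difference of -0.44 ± 0.15 (adjusted p = 0.0474 by limma). The 12 h and 24 h values of its arms did not overlap either, with a difference of -0.40 that missed the threshold. MCM3 was called in the F-test over the 4 times alone, with 12.08, 11.84, 12.32 and 11.93 in quercetin arrays and 12.39, 11.64, 12.08 and 12.08 in control arrays (adjusted p = 0.0272 by limma). Its lowest values were those of the 4 h arrays. MCM2 and MCM6, with differences of -0.20 and -0.33 at 24 h against 12 h, and CDT1, the CDC6 partner, with -0.32, were called in no comparison. A further CDT1 probe set above the filter ran the other way, with 0.32 at 24 h against 12 h.

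**Figure D2:**
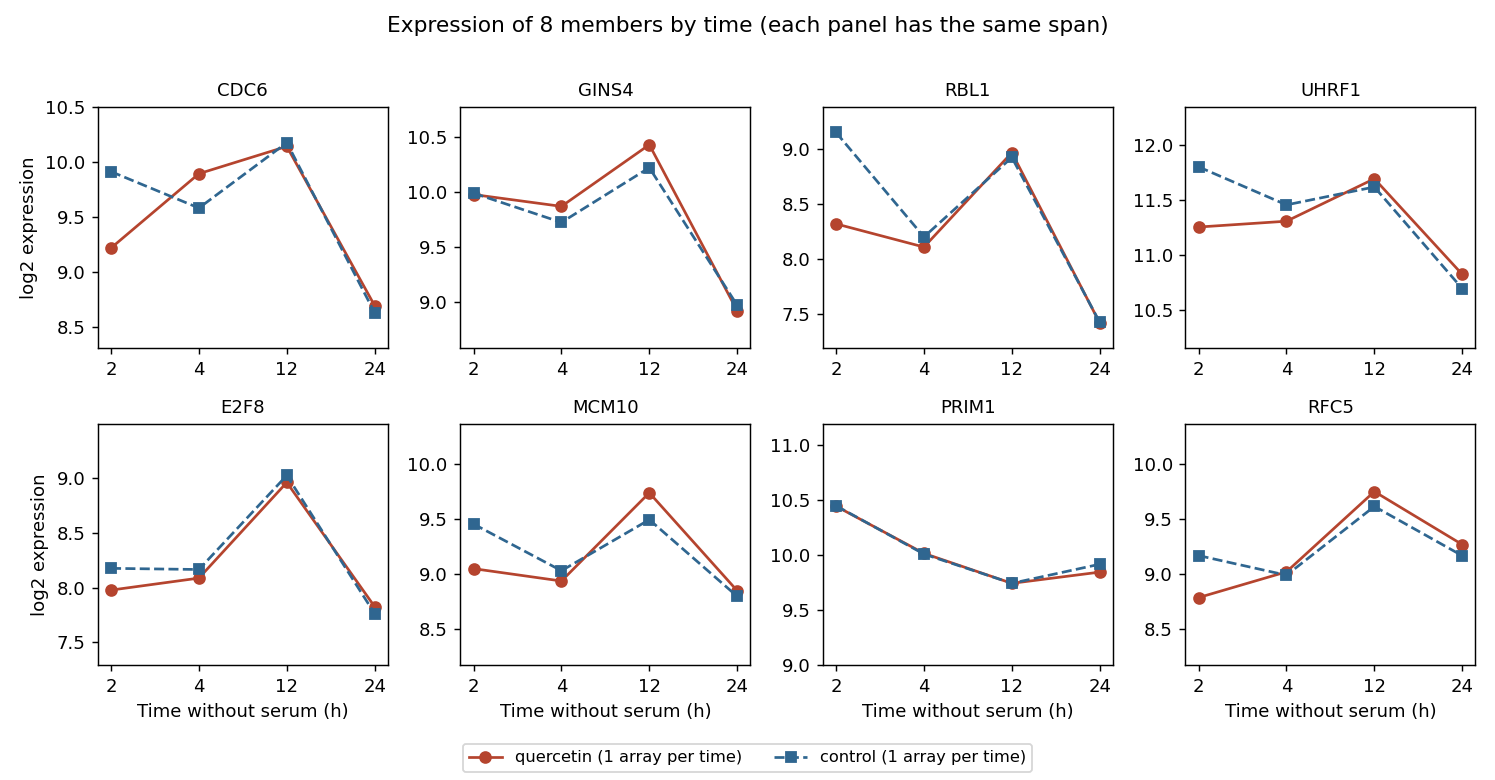
Log2 expression (vertical axis, the same span in each panel) for 8 members, with 1 array per point in quercetin-treated and control cells. The horizontal axis, time without serum, counts hours in the serum-free medium after the starvation (evenly spaced). CDC6, GINS4 and RBL1 are lowest at 24 h in both treatments, at 8.69, 8.92 and 7.42 with quercetin and 8.63, 8.97 and 7.42 in control, while PRIM1 is highest at 2 h and RFC5 at 12 h.

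All 4 subunits of the GINS complex fell at 24 h against 12 h, together with MCM10, which joins the helicase to the polymerases. So 5 of the 6 tested genes of helicase activation were called lower, where 4.78% of all genes were. GINS4 had 9.98, 9.87, 10.43 and 8.92 with quercetin and 9.99, 9.72, 10.22 and 8.97 in control, so the 24 h arrays lay about 1 log2 unit below the 2 h arrays. Its difference was -1.38 ± 0.17 against 12 h (2.61-fold, adjusted p = 1.56e-05 by limma), -0.85 against 4 h (adjusted p = 0.000533 by limma) and -1.04 against 2 h (adjusted p = 0.00024 by limma). GINS4 was called in every alternative run for these 3 comparisons, 22, 23 and 22 in number.

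GINS3 stood at 9.39, 9.48, 9.48 and 8.88 with quercetin and at 9.43, 9.35, 9.64 and 8.77 in control. It was lower, with a difference of -0.73 ± 0.18 against 12 h (adjusted p = 0.00617 by limma), of -0.58 against 4 h (adjusted p = 0.0129 by limma) and of -0.59 against 2 h (adjusted p = 0.0242 by limma). In the GINS3 probe set used the level hardly varied over the first 3 times, and both 24 h arrays lay below all others. A further GINS3 probe set above the filter gave -0.46 against 12 h and -0.25 against 2 h. Its 24 h control value (8.12) lay above those of quercetin at 2 h (7.81) and control at 4 h (7.97). GINS2 had 10.57, 10.49, 10.86 and 10.18 in quercetin arrays, against 10.87, 10.43, 10.86 and 10.10 in control arrays, and was lower, with differences of -0.72 ± 0.16 against 12 h (adjusted p = 0.00313 by limma) and of -0.58 against 2 h (adjusted p = 0.0136 by limma).

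GINS1 had its lowest values in the 4 h and 24 h arrays. It had 11.20, 11.10, 11.75 and 11.03 with quercetin and 11.63, 11.07, 11.60 and 11.14 in control, a difference of -0.59 ± 0.15 at 24 h against 12 h (adjusted p = 0.00897 by limma) and of 0.002 against 4 h. MCM10 had 9.05, 8.93, 9.74 and 8.85 with quercetin and 9.45, 9.03, 9.49 and 8.79 in control, a difference of -0.80 ± 0.19 at 24 h against 12 h (adjusted p = 0.00562 by limma). The 2 further MCM10 probe sets gave -1.44 and -0.54. CDC45, which completes the active helicase, had 8.81, 8.49, 8.79 and 8.27 with quercetin and 8.74, 8.58, 8.60 and 8.25 in control, with both 24 h arrays below the others, but -0.51 ± 0.19 against 2 h missed the threshold (adjusted p = 0.0551 by limma). Claspin, a fork and checkpoint mediator, was dim at 7.18, 7.53, 7.09 and 7.14 with quercetin and 7.37, 7.68, 7.45 and 7.59 in control.

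Of the polymerase, clamp and loader genes, 3 of 10 were called lower at 24 h against 12 h, where 4.78% of all genes were. Against 2 h and 4 h 2 each were called lower, beside 3.98% and 9.45% of all genes. Roles were not tested against each other. POLE2, a subunit of the leading-strand polymerase, had 9.73, 9.91, 9.97 and 9.57 in quercetin arrays, against 10.01, 9.90, 10.17 and 9.31 in control arrays. It was lower, with a difference of -0.63 ± 0.18 against 12 h (adjusted p = 0.015 by limma) and of -0.47 against 4 h (adjusted p = 0.0415 by limma). FEN1, the flap endonuclease that trims Okazaki fragments, had 10.99, 10.89, 11.23 and 10.70 with quercetin and 11.27, 10.82, 11.20 and 10.77 in control, a difference of -0.48 ± 0.15 at 24 h against 12 h (adjusted p = 0.0264 by limma). For both genes the 24 h arrays were the lowest.

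PCNA, the sliding clamp, had 13.38, 13.17, 13.42 and 13.20 with quercetin and 13.41, 13.26, 13.24 and 12.69 in control. Its difference of -0.45 ± 0.12 against 2 h (adjusted p = 0.0126 by limma) and of -0.39 against 12 h (adjusted p = 0.0279 by limma) was largest in the control arm. The 24 h quercetin value stood above that of the 4 h quercetin array.

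PRIM1, the catalytic primase subunit, followed another course, with 10.44, 10.01, 9.74 and 9.84 in quercetin arrays, against 10.45, 10.01, 9.74 and 9.91 in control arrays. The arms differed by at most 0.07 at any time. It was lower, with a difference of -0.70 ± 0.17 at 12 h against 2 h (adjusted p = 0.0222 by limma) and of -0.57 at 24 h against 2 h (adjusted p = 0.0179 by limma), so its highest values were those of the 2 h arrays.

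The clamp loader subunits did not move together. RFC5 had 8.78, 9.02, 9.75 and 9.27 with quercetin and 9.17, 8.99, 9.61 and 9.17 in control, higher by 0.71 ± 0.19 at 12 h against 2 h (adjusted p = 0.0447 by limma). At 24 h against 12 h the RFC5 probe set used gave -0.47, and 2 further ones gave -0.60 and 1.59. RFC3 had 10.18, 10.40, 10.19 and 9.87 with quercetin and 10.53, 10.34, 10.05 and 9.98 in control, a difference of -0.44 ± 0.17 at 24 h against 4 h (adjusted p = 0.0431 by limma). RFC2 and RFC4 differed by -0.42 and 0.16 at 24 h against 12 h and were not called. The polymerase subunits POLA1 (-0.30) and POLD1 (-0.20) were not called either.

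Of the nucleotide supply genes, both ribonucleotide reductase subunits were called lower at 24 h against 2 h, where 3.98% of all genes were. RRM1 had 11.75, 11.40, 11.88 and 11.53 with quercetin and 12.03, 11.55, 12.10 and 11.38 in control. Its difference was -0.43 ± 0.14 at 24 h against 2 h (adjusted p = 0.0331 by limma). Against 12 h it was -0.54 (adjusted p = 0.00888 by limma). A further RRM1 probe set changed less, with -0.08 against 2 h and -0.13 against 12 h. RRM2 had 12.79, 12.37, 12.59 and 12.46 with quercetin and 12.82, 12.46, 12.45 and 12.46 in control, a difference of -0.35 ± 0.12 at 24 h against 2 h (adjusted p = 0.039 by limma). The probe set used changed little after 4 h, while the other RRM2 probe set was lowest at 24 h and gave -0.53 against 12 h and -0.66 against 2 h. Thymidylate synthase (TYMS) ranged over 0.35 on the 8 arrays, the narrowest of these 3, and was not called.

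Of the 6 tested regulators, 3 were called lower at 24 h against 12 h and 2 against 2 h, with RBL1 among them both times. Over all genes tested 4.78% and 3.98% were called lower. RBL1, a retinoblastoma family repressor of E2F genes and itself cell cycle regulated, had 8.32, 8.11, 8.97 and 7.42 in quercetin arrays, against 9.15, 8.20, 8.92 and 7.42 in control arrays. Both 24 h values lay just below the dim-signal filter, 7.43, so only a bound is read there. With them raised to the filter RBL1 was at least 2.87-fold lower than at 12 h, 1.66-fold lower than at 4 h and 2.48-fold lower than at 2 h. The fit on the values as deposited gave -1.53 against 12 h, -0.73 against 4 h and -1.32 against 2 h, and RBL1 was called in each. These calls rest on values below the filter, so their p-values are not read.

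E2F8, an atypical E2F that represses transcription, stood out by its 12 h values, with 7.98, 8.09, 8.96 and 7.83 with quercetin and 8.17, 8.16, 9.02 and 7.76 in control. It was higher at 12 h by 0.91 ± 0.19 against 2 h (1.88-fold, adjusted p = 0.00903 by limma) and by 0.86 against 4 h (adjusted p = 0.00917 by limma). At 24 h it was lower, with a difference of -1.20 against 12 h (2.29-fold, adjusted p = 0.000159 by limma).

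DTL, the substrate receptor of the ligase that destroys CDT1 in S phase, had 10.70, 10.90, 10.91 and 10.24 with quercetin and 11.13, 10.71, 10.88 and 10.26 in control. It was lower at 24 h, with a difference of -0.66 ± 0.17 against 2 h (adjusted p = 0.00735 by limma), of -0.56 against 4 h (adjusted p = 0.0106 by limma) and of -0.64 against 12 h (adjusted p = 0.00846 by limma). The dim CCNE2, whose product drives CDK2 at the G1/S boundary, had 6.54, 6.48, 6.92 and 5.94 with quercetin and 7.13, 6.96, 7.36 and 6.18 in control, and its means at 24 and 12 h differed by -1.08 without a test. The related cyclin gene CCNE1 ranged over 0.32 on the 8 arrays, and neither CCNE1 nor the activators E2F1 and E2F2 were called.

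Among the chromatin and repair genes UHRF1, which carries DNA methylation across replication, was called in all 3 comparisons with 24 h. It had 11.25, 11.31, 11.69 and 10.82 in quercetin arrays, against 11.80, 11.45, 11.62 and 10.69 in control arrays. The differences were -0.77 ± 0.16 against 2 h (adjusted p = 0.00183 by limma), -0.62 against 4 h (adjusted p = 0.00387 by limma) and -0.90 against 12 h (adjusted p = 0.000538 by limma). CHAF1A, a histone chaperone subunit, SLBP, which binds histone mRNA, and MSH6, a mismatch repair protein, were not called. The MSH6 probe set used had its 2 highest values at 24 h (11.78 with quercetin and 11.72 in control). A further MSH6 probe set above the filter was highest on the 2 h control array (9.77) and gave -0.06 at 24 h against 12 h.

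**Figure D3:**
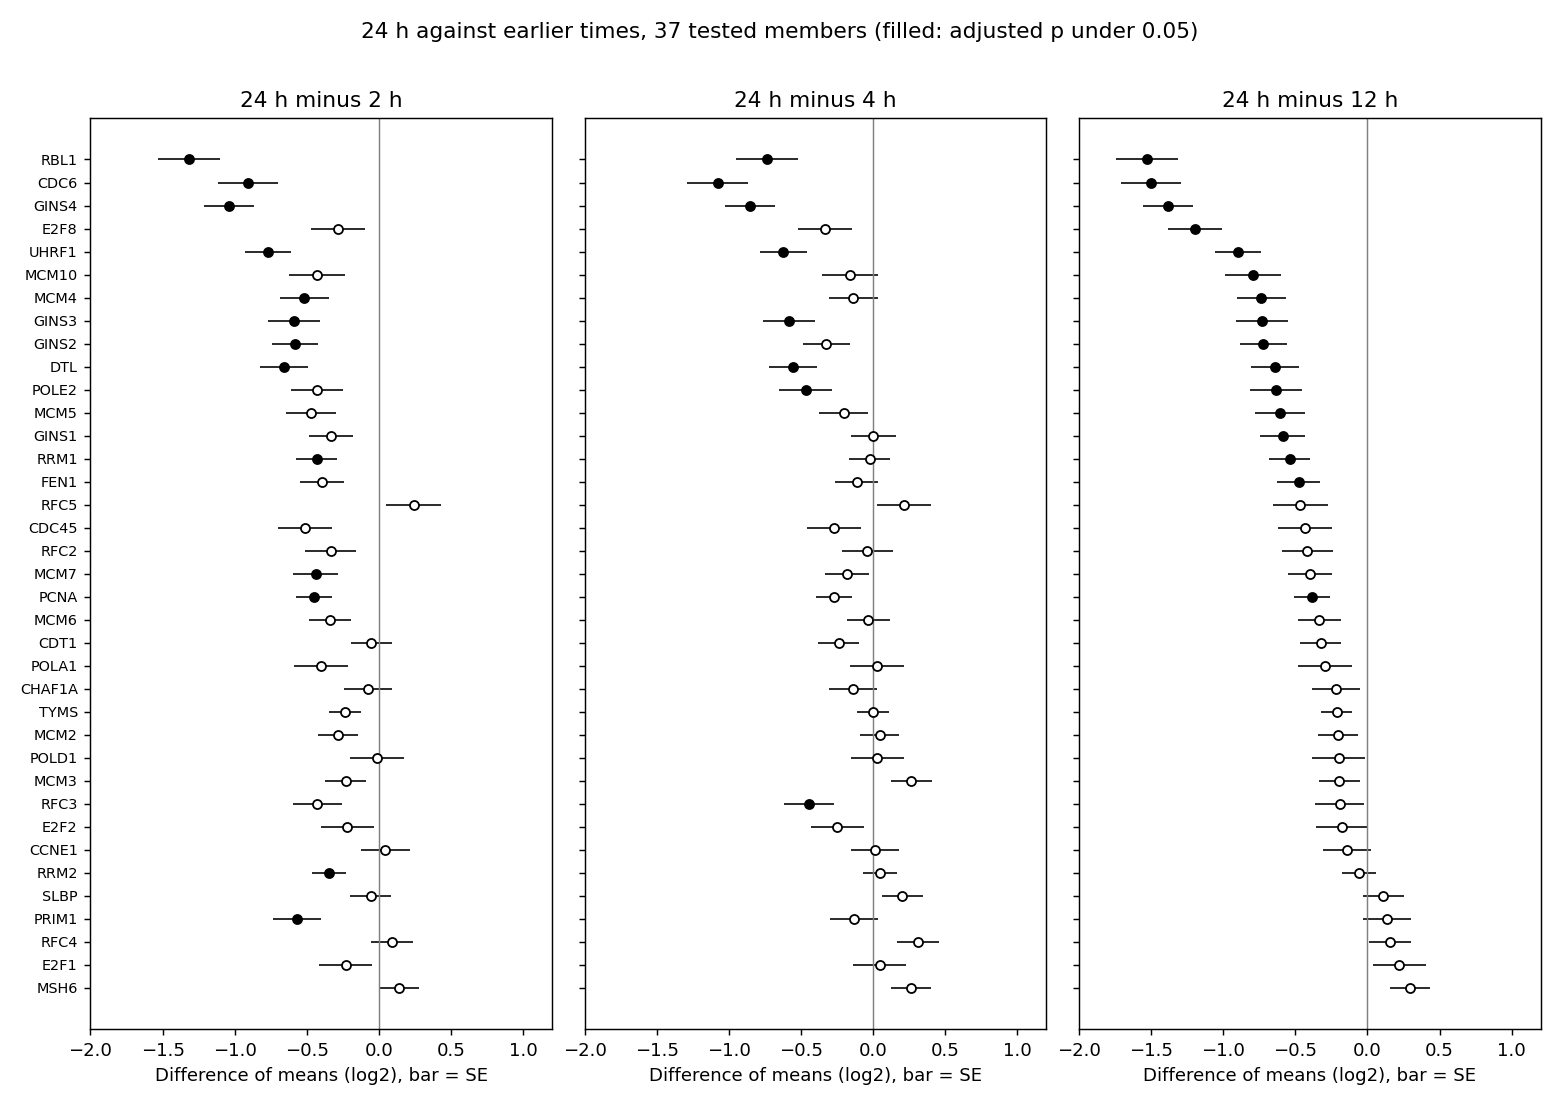
Difference of means in log2 units (horizontal axis, bars give the SE, 2 arrays a time) for the 37 tested members (rows), at 24 h against 2, 4 and 12 h; filled points passed an adjusted p of 0.05. In the 24 h minus 12 h panel 16 points are filled, all left of 0, and in the 24 h minus 4 h panel 8 are.

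Promoter windows from RefSeq (GRCh38.p14) are shown for 4 of the members with the largest falls at 24 h against 12 h. Each window runs from 250 bases before to 50 after the annotated start of the gene, 5′ to 3′ on the gene's strand, and capitals mark matches to an E2F motif. The motif was searched on both strands as TTTCCCGC, TTTCGCGC, TTTGCCGC or TTTGGCGC.
RBL1 (chr20:37095948-37096247, minus strand): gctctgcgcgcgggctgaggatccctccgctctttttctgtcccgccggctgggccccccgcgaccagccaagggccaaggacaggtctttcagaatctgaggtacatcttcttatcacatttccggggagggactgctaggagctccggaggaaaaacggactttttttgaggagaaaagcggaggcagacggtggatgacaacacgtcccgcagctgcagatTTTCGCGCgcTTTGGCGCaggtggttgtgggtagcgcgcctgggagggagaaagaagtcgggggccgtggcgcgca
CDC6 (chr17:40287629-40287928, plus strand): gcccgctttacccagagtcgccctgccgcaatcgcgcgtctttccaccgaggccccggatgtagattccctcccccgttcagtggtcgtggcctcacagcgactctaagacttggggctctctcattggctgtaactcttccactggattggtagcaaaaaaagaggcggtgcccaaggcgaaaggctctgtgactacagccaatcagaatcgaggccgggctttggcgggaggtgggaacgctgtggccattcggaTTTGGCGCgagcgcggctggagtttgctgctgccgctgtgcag
UHRF1 (chr19:4909251-4909550, plus strand): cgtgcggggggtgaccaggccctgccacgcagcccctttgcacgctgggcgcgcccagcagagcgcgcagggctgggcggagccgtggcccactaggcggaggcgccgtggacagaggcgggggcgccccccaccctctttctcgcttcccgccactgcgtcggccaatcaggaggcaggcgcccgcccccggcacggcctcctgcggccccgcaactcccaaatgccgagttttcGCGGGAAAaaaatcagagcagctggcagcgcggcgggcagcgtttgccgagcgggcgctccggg
MCM10 (chr10:13161308-13161607, plus strand): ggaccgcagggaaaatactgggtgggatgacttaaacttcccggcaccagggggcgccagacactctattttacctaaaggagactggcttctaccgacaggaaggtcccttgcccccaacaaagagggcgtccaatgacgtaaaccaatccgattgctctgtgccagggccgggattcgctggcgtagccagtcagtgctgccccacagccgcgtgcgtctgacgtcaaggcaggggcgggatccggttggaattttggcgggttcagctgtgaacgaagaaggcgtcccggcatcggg
RBL1 held TTTCGCGC with its first base 26 bases before the start and TTTGGCGC 16 bases before. CDC6 held TTTGGCGC 7 bases after the start, and UHRF1 held TTTCCCGC on the other strand, read as GCGGGAAA, 14 bases before. The MCM10 window held none of the 4 words, and other forms of the motif were not searched in any window.

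A window was found for 34 of the 39 members, and 7 of these had several, of which the first listed was used. E2F words occurred in 21 of the 34 windows (61.8%), against 4.67% of 13456 protein-coding genes with a probe set and 3.33% of all 27305 windows. They occurred in 9 of 12 windows of members called lower at 24 h against 12 h (75%) and in 11 of 21 of the tested members not called (52.4%). E2F1, MCM2 and MSH6 are members with such a word that were not called. CCAAT, a box that binds NF-Y, occurred in 20 of the 34 windows (58.8%) and in 36.2% of the protein-coding genes. A match describes these letters only.

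Levels at 12 h were above those at 4 h for part of the set. At 12 h against 4 h, chosen after the values were seen, 7 members rose and 0 fell by limma, where 6.56% of all genes were called higher and 0.97% lower. These were E2F8, RBL1 (0.79), RFC5 (0.68), MCM10 (0.63), MCM4 (0.60), GINS1 (0.59) and RRM1 (0.51). The spike-in signal was low on both 12 h arrays and high on both 4 h arrays. With the spike-in class as a block 0 were called, RBL1 turned to -0.022, and the calls numbered 0 without the 4 h control or the 12 h quercetin array and 1 without the 4 h quercetin array. MCM4 turned to -0.18 with gene-specific probe sets and to -0.026 with the mean of its probe sets.

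At 4 h against 2 h limma called 0 members, where 0.534% of all genes were called. An unadjusted p under 0.05 was found for 10 members, all lower at 4 h, and for 2350 of all genes, 1944 of them lower. The median difference was -0.24 for the members and -0.09 for all genes. At 12 h against 2 h 3 members were called (E2F8 and RFC5 higher, PRIM1 lower), with 3% of all genes called.

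With late (12 and 24 h) set against early (2 and 4 h) arrays, the high 12 h and the low 24 h values are averaged together, and 3 members were called. PRIM1 (-0.42 ± 0.12, adjusted p = 0.0113 by limma) and RFC3 (-0.34 ± 0.12, adjusted p = 0.043 by limma) were called lower, and RFC5 (0.46 ± 0.13, adjusted p = 0.0146 by limma) was called higher, where 5.6% of all genes were called lower and 22% higher. The split of 1 higher and 2 lower became 2 higher and 1 lower with arrays centred on their medians. It became 0 higher and 12 lower under cyclic loess, and 1 higher and 11 lower under quantile normalization. The F-test over the 4 times called 20 of 37 members, against 38.1% of all genes. In no time comparison or F-test were 15 members called, among them CDC45, E2F1, E2F2, CCNE1, MCM2, MCM6, POLA1, POLD1 and TYMS. Both 24 h arrays lay below the other 6 for 16 of the 37 members, and for 10% of all genes.

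Counts for related genes outside the list follow, with no test between lists. Of 24 tested fork and polymerase genes that are not members, 3 fell at 24 h against 12 h (12.5%, against 4.78% of all genes). They were the histone chaperone ASF1B (-0.75), the ribonuclease subunit RNASEH2A (-0.57) and the fork protector TIMELESS (-0.55). The thymidine kinase TK1 fell by 0.58 on the log2 scale against 2 h, and the large clamp loader subunit RFC1 rose by 0.47. Of 13 origin and licensing genes, 2 rose at 24 h against 12 h and 0 fell, namely the origin subunit ORC4 (0.47) and the MCM-binding protein MCMBP (0.63). These 15.4% stand beside 19% of all genes called higher.

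Among 22 other G1/S regulators, 6 rose (27.3%) and 0 fell at 24 h against 2 h, where 17.3% of all genes were called higher. They include inhibitors of S-phase entry. CDKN1B, an inhibitor of cyclin-CDK complexes, had 10.83, 10.85, 11.35 and 11.81 in quercetin arrays, against 11.08, 10.99, 11.36 and 11.98 in control arrays, and rose by 0.94 (adjusted p = 0.000104 by limma). RB1 rose by 0.56, the retinoblastoma relative RBL2 by 0.47, CDKN1A by 0.50, the repressor E2F5 by 1.01 and the E2F partner TFDP2 by 0.56. CDK2 was called lower at 24 h against 12 h (-0.56).

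Of 40 tested mitotic and G2/M genes, 10 rose (25%, against 17.3% of all genes) and 0 fell at 24 h against 2 h. At 24 h against 12 h 1 rose and 1 fell (2.5% each), where 19% of all genes were called higher and 4.78% lower. At 24 h against 4 h 25 rose (62.5%, against 32.8% of all genes) and 0 fell, and their median was 0.46, where the members' was -0.14. Both 24 h arrays lay below the other 6 for 0 of the 40. They lay above the other 6 for 12 (30%), as for 29.6% of all genes. ASPM, a spindle pole protein, had 10.09, 9.83, 11.00 and 11.34 with quercetin and 10.56, 9.69, 10.83 and 11.42 in control. E2F words occurred in 3 of 34 windows of these genes (8.82%) and CCAAT in 28 (82.4%). These counts describe both lists, and no test between the lists was made.

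**Figure D4:**
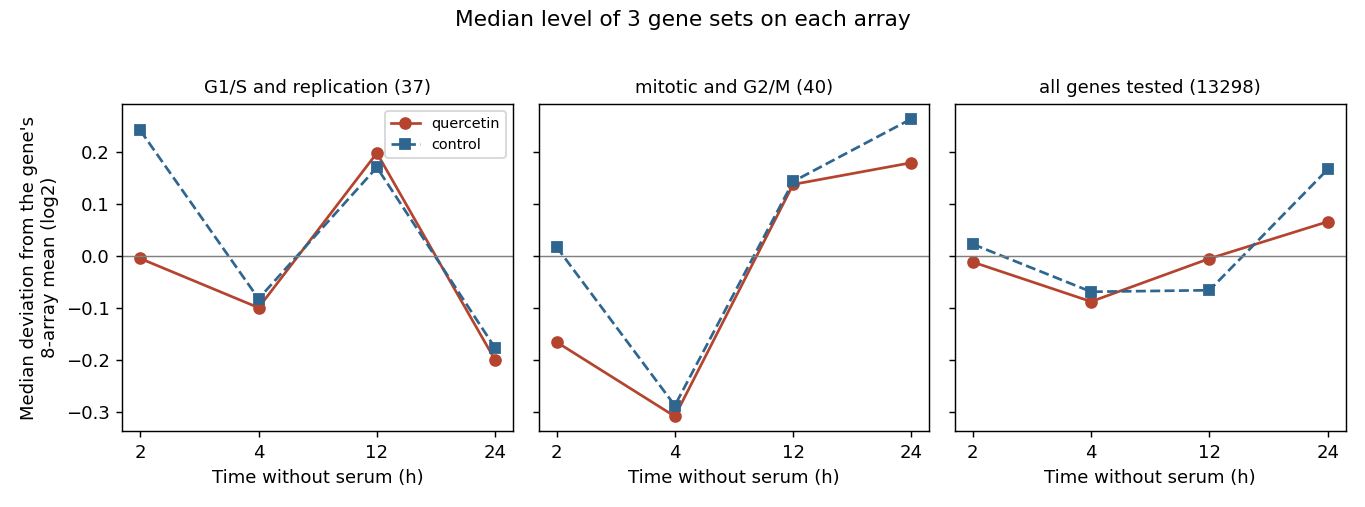
Median deviation from the gene's own 8-array mean (log2, vertical axis) for the 37 tested members, 40 mitotic genes and all 13298 genes tested. Quercetin-treated and control cells are drawn apart. The horizontal axis, time without serum, counts hours in the serum-free medium after the starvation (evenly spaced). At 24 h the members stand at -0.20 with quercetin and -0.18 in control, the mitotic genes at 0.18 and 0.26, and all genes at 0.07 and 0.17.

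Quercetin left no member called over the 4 times. Limma called 0 of 37 members for quercetin against control, and 0% of all 13298 genes, and 0 members and 785 genes in all had an unadjusted p under 0.05. The members' median difference was -0.05 and that of all genes -0.03. With 4 pairs an exact two-sided sign-flip test cannot give a p below 0.125.

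The largest negative mean differences were those of RBL1 (-0.22 ± 0.15), RFC4 (-0.19 ± 0.10) and MCM5 (-0.18 ± 0.12), and the largest positive ones those of PCNA (0.14 ± 0.09), GINS4 (0.07 ± 0.12) and CDC45 (0.05 ± 0.13). RFC4 had 10.94, 10.73, 10.87 and 11.08 with quercetin and 11.15, 10.93, 11.09 and 11.20 in control, lower in each of the 4 pairs by 0.12 to 0.22. A further MCM5 probe set gave 0.09, and of 27 further probe sets above the filter in 20 members 15 had the opposite sign to the one used. The difference of RBL1 came from the 2 h pair (-0.83), while the other pairs lay between -0.09 and 0.04. PCNA was 0.51 higher at 24 h and within 0.18 of its control at the other times. RFC4 and SLBP were lower in each of the 4 pairs, 2 of 37 members with 1 sign throughout, as were 13.8% of all genes. Of the dim genes, CCNE2 was lower with quercetin at every time (-0.59, -0.48, -0.44 and -0.24), and so was CLSPN (-0.19, -0.15, -0.36 and -0.45). Dimmer probe sets of both genes were not all lower. The other CCNE2 probe set had 6.55 with quercetin and 6.14 in control at 4 h, and a CLSPN one had 6.19 and 5.86 at 4 h.

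At single times the comparison is of 1 array with 1 array and has no test. At 2 h 34 of 37 members were lower with quercetin, as were 7718 of all 13298 genes, with medians of -0.22 and -0.06. Of the mitotic genes 34 of 40 were lower (median -0.19), and of the other G1/S regulators 19 of 22 (median -0.23). Differences of at least 0.5 in size were found for 3 members, RBL1 (-0.83), CDC6 (-0.70) and UHRF1 (-0.55), and for 13.7% of all genes. This pair is the one that differed in spike-in and 18S signal, and its part in the difference was not tested. At 4 h 0 members passed 0.5 (2.96% of all genes), with 21 higher and 16 lower, against 6082 and 7212 of all genes. At 12 h 0 passed (5.39% of all genes), with 24 higher and 13 lower, against 7881 and 5414 of all genes. The 12 h pair differed in the 3' over 5' excess of ACTB (0.88 with quercetin and 1.40 in control), whose part was not tested. At 24 h 1 passed, PCNA (8.65% of all genes), with 18 higher and 19 lower, against 4496 and 8800.

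The interaction test set the quercetin difference at 12 and 24 h against that at 2 and 4 h. It called 0 of 37 members (limma, 0.368% of all genes called). Late minus early was above 0 for 30 of the 37 members (median 0.13) and for 7267 of 13298 genes (median 0.03). Unadjusted p was under 0.05 for 2 members, PCNA (late minus early 0.40) and UHRF1 (0.45). The largest departures were those of RBL1 (0.48 ± 0.31), UHRF1 (0.45 ± 0.23) and POLD1 (0.44 ± 0.28). The 2 h pair weighs in each of these 3, with differences of -0.83, -0.55 and -0.37 at that time. Without that pair the median late minus early of the members was 0.004. Residual degrees of freedom were 2 in the interaction fit of all arrays and 3 in the others.

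**Figure D5:**
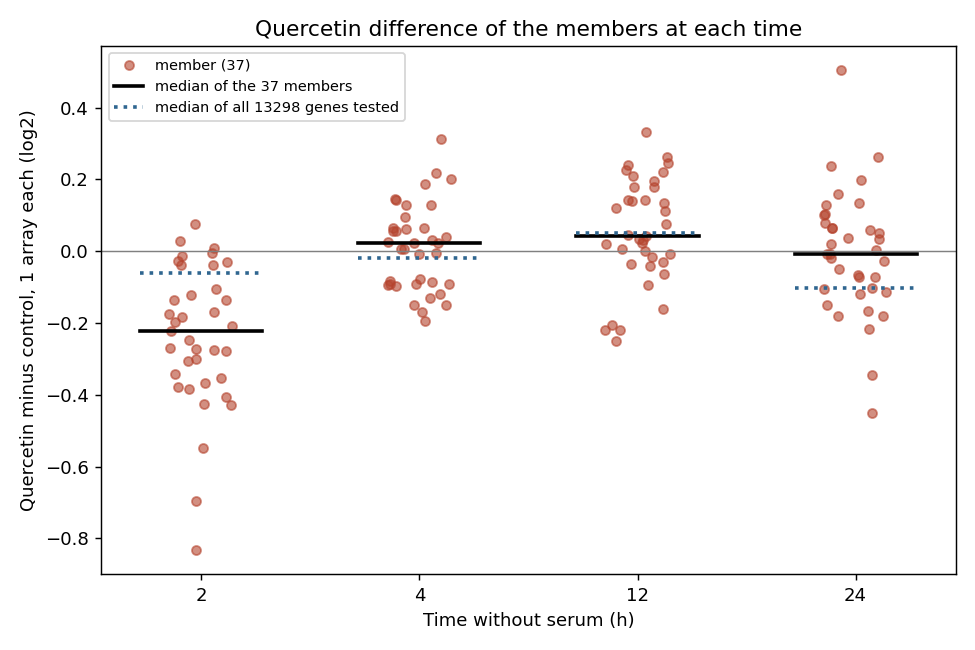
Quercetin minus control in log2 units (1 array each, vertical axis) for the 37 tested members at each time. The horizontal axis, time without serum, counts hours in the serum-free medium after the starvation. Lines give the members' median (black) and the median of all 13298 genes (dotted). At 2 h the members' median is -0.22, and at 4, 12 and 24 h it is 0.02, 0.04 and -0.01.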

How the data were processed

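Expression was measured in 8 HepG2 samples, 1 for each of 2 treatments and 4 times. The authors deposited 1 table of log2 values, and the submitters' processing notes name RMA. Its version and settings, and the unprocessed signals, were not used here, so what they did to weak or saturated probes is unknown, and precision is limited by how few arrays there are. Of 54675 probe sets, 62 were array controls, 41091 carried exactly 1 symbol and 1801 carried more than that, while 11721 are unnamed here. A gene was tested if the mean of its best probe set exceeded 7.43, the median over all probe sets (13298 genes, with 6477 left out).

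Limma 3.58.1 in R 4.3.3 fitted time and treatment (lmFit, then eBayes with a mean-variance trend), with Benjamini-Hochberg adjustment over all genes and a threshold of 0.05. Single times used a difference of 0.5. Members and lists were chosen with earlier results of these data known. The rule for named genes took all 39 members, values by array for those called (at most 12 in a direction), the 3 largest quercetin differences each way, and up to 4 genes of each related list. The text goes past this rule, with array values for more members, called and not called, and over 4 genes of some lists. Every other gene named here is on those lists. Code was tested on simulated data. The alternatives were filters, probe set choice, centring, loess, quantile normalization, eBayes settings, a spike-in block, thresholds, and leaving out arrays or pairs.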

Additional observations from a re-analysis of the deposited data

Results flagged for a closer look

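CDK6, a kinase that opens G1 and one of the 22 other G1/S regulators, was the 1 gene of the lists examined for which the interaction test found unlike quercetin differences in the later (12 and 24 h) and the earlier (2 and 4 h) pairs (late minus early 0.75, adjusted p = 0.0177 by limma). It had log2 values of 12.35, 12.39, 12.61 and 12.83 in quercetin arrays at 2, 4, 12 and 24 h, against 12.51, 12.37, 11.62 and 12.45 in control arrays. The 12 h control array was the lowest of the 8 for CDK6. That array also had the highest 3' over 5' excess of ACTB, at 1.40, against 0.88 on the 12 h quercetin array. The part of this excess in the CDK6 call was not tested. The call held in 7 of 23 alternatives, with adjusted p values by limma up to 1. It was lost with no filter, the mean of probe sets, median centring, cyclic loess, quantile normalization, no mean-variance trend, the spike-in block, and whenever an array or pair of 2, 4 or 12 h was left out.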

How the results depend on the processing

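The main counts for 24 h against 2, 4 and 12 h, 12 h against 4 h, late against early and the F-test were 13, 8, 16, 7, 3 and 20. Cyclic loess gave 25, 23, 27, 3 and 12 for the first 5, and quantile normalization 23, 25, 26, 4 and 12. The median of all genes moved under these from 0.16 to 0.0086 and -0.0085 at 24 h against 12 h, and the members' median moved to -0.63 and -0.67. Gene-specific probe sets gave 8, 10 and 4 for 24 h against 2 h, 24 h against 12 h and 12 h against 4 h. The mean of probe sets gave 8 for 24 h against 2 h, 1 for 12 h against 4 h and 12 for the F-test. For 12 h against 4 h every probe set on its own gave 3 and no mean-variance trend 3. With the spike-in class as a block, added after the data were seen, the counts were 3 for 24 h against 2 h, 1 against 12 h, 0 for 12 h against 4 h, 6 for late against early and 8 for the F-test. Median centring gave 3 for late against early with the direction turned, and the members' median then turned to 0.05. Leaving out 1 array or pair gave 2 to 16 (24 h against 2 h), 2 to 9 (against 4 h), 7 to 16 (against 12 h), 0 to 9 (12 h against 4 h), 0 to 12 (late against early, with more calls higher than lower without the 2 h or 24 h pair or the 4 h quercetin array, while the members' median also turned without the 2 h control array, to 0.018) and 3 to 21 (F-test, with 3 without the 24 h pair). MCM4 at 12 h against 4 h turned to -0.026 with the mean of probe sets and -0.18 with gene-specific ones, and RBL1 to -0.022 with the class block.

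For quercetin, 0 members were called over the 4 times in all 25 alternatives. The late against early difference gave 1 with every probe set on its own and 0 to 1 when arrays or pairs were left out. At 2, 4, 12 and 24 h every probe set on its own gave 8, 1, 2 and 3 past 0.5, and gene-specific probe sets 5 at 2 h and 2 at 24 h. At 24 h median centring gave 0, and a threshold of 1 gave 0 at 2 h and 0 at 24 h. Of 27 further probe sets in 20 members, 8 had the opposite sign at 24 h against 12 h, 2 at 24 h against 2 h, 11 for late against early and 15 for quercetin against control. The causes of these changes were not tested. The quercetin fit is paired by time, and without that pairing it called 0 members too.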
